A study of Homo sapiens with 6 samples.

Results

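The 10 genes described here encode surface proteins by which mammary stem cells or tumour-initiating cells have been sorted: CD24, CD44, EPCAM, PROCR, PROM1, NT5E, ENG, MME, ALCAM and CD55. They were chosen by name, as the rows of the deposited table whose Ensembl identifiers carry these symbols in GENCODE 29. All 10 were found among the 58381 rows of the table. RNA had been measured in MCF10AT1, a human breast epithelial cell line of the MCF10A series that carries activated HRAS. Cells stained with antibodies to CD24 and CD44 were separated by fluorescence-activated sorting into a CD24low, CD44high fraction (3 libraries) and a CD24high, CD44+ fraction (3 libraries). Both fractions came from the same line in the same medium with horse serum, insulin, EGF, cholera toxin and hydrocortisone, and the column names call them CSC and Bulk. All results concern this 1 line, and p-values measure the spread between libraries, which the labels do not tie to separate cultures. The question was which of the other sorting markers differed, at the transcript level, between fractions separated by CD24 and CD44.

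CD24 is a short, heavily glycosylated protein held to the membrane by a glycosylphosphatidylinositol (GPI) anchor, and CD44 is the main receptor for hyaluronan. Breast cells with little CD24 and much CD44 have been used as a source of tumour-initiating cells, while EPCAM, an epithelial adhesion molecule, is used to separate luminal from basal mammary cells. PROCR, the receptor of activated protein C, and PROM1 (CD133) have marked progenitor populations, and NT5E (CD73), ENG (CD105) and ALCAM (CD166) are shared with mesenchymal stromal cells. MME (CD10) marks myoepithelial cells, and CD55 is a GPI-anchored inhibitor of complement.

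The count of CD24 carries a doubt that can be read from its sequence, so the coding sequence is shown beside that of CD24P4, a processed copy. Both were taken from GENCODE 29 transcripts (hg38), CD24 from the transcript CD24-204 of chr6:106969831-106975627, minus strand, where the coding part starts at base 441, and CD24P4 from chrY:18992467-18992709, minus strand. Capitals mark the positions at which they differ, counted from 1 at the first base of the coding sequence.
CD24: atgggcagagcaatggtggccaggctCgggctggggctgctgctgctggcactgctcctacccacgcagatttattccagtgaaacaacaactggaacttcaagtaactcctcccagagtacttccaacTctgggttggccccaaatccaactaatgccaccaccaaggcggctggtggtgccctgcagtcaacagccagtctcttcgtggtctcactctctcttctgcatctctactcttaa
CD24P4: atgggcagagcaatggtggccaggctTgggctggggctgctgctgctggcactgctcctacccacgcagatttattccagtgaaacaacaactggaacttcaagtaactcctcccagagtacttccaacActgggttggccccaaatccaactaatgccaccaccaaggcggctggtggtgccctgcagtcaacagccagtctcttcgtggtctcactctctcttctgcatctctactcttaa
The copy differed from CD24 at 2 of 243 bases, C27T and T130A, and the longest stretch without a difference was 113 bases. The other annotated copies were less alike: CD24P2 on chromosome 15 had 14 mismatches and CD24P1 on chromosome 1 had 33. The longest run shared with CD24 was 52 bases in CD24P2 and 19 bases in CD24P1. No read was counted at CD24P1 or CD24P2 in any library, whereas CD24P4 had 280 reads over the 6 libraries and CD24 had 13527. The coding sequence makes up 9.67% of the CD24 transcript, and sequence beyond the annotated bases of CD24P4 was not compared.

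Recovered read totals ran from 16691162 to 27293177 per library. Genes of ribosomal RNA took 1.30% to 2.27% of reads in 3 libraries (CD24high replicates 1 and 2, CD24low replicate 3) and 7.07% to 10.2% in the other 3. These are called the low-rRNA and the high-rRNA libraries below. Differences are also given inside each set, where the smaller side has 1 library, as values with no test. All 7 epithelial markers, keratin genes and CDH1, passed the filter on low values. Their summed values were 129096 to 152998 normalized counts in CD24high and 83981 to 123597 in CD24low. KRT14 was the lowest of the 7, with 203 to 571 normalized counts in CD24high and 178 to 237 in CD24low. Of the fibroblast markers 1 of 7 passed the filter on low values, and LUM had 0 reads. Their sum was 24.9 to 42.4 normalized counts in CD24high and 41.1 to 135 in CD24low. Of the immune markers 2 of 6 passed, CD3E had 0 reads, and the sums were 111 to 145 and 139 to 243. Of the endothelial markers 1 of 5, PECAM1, passed, and the sums were 92.9 to 400.1 and 110.2 to 345. The part of any other cell type in the results below was not tested.

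**Figure D1:**
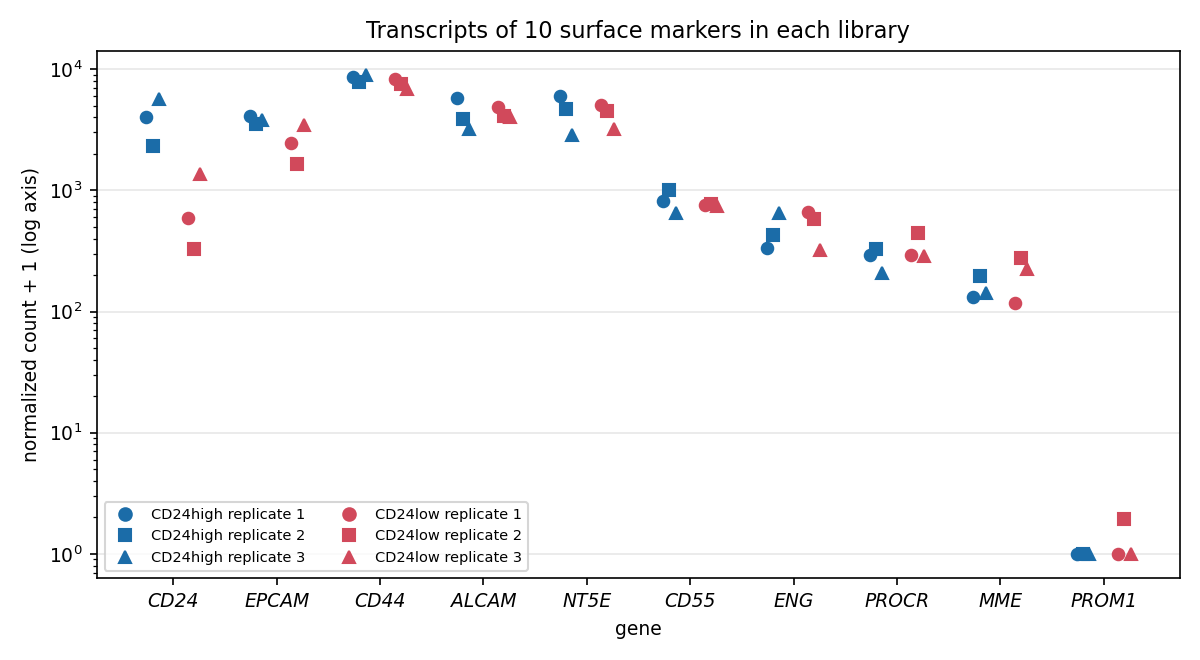
Normalized counts plus 1 (log axis) of the 10 genes, 1 point per library; colour gives the sorted fraction and symbol the replicate number. The points of CD24 and of EPCAM separate by fraction, from 2325 and more down to 1370 and less for CD24; those of the other genes mix, and PROM1 has 1 read in all.

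Of the 10 genes, 9 reached the mean of 10 normalized counts required for testing and PROM1 did not. Limma's test on log2 (normalized count + 1) called 0 of these 9 at an adjusted p of 0.05, as it called 0% of the 16047 genes tested; edgeR also called 0 genes, and 13.5% of all genes had an unadjusted limma p below 0.05. Unadjusted, 2 members had a p under 0.05, CD24 and EPCAM, both lower in CD24low cells; over all genes 7.15% met that in this direction and 6.34% in the other. The same 2 were the only tested members whose groups of libraries did not overlap, where 9.32% of all genes were lower and 10.2% higher without overlap. DESeq2 on the recovered reads called 1 member, CD24, whose protein was itself used for the sort. Of all genes, DESeq2 called 1.15% as lower, 1.36% as higher and 2.51% in either direction. Some other settings of the test called 1 or 2 members. Limma called CD24 with no filter (0.525% of all genes called) and without both libraries numbered 3 (0.642%), and CD24 and EPCAM without CD24low replicate 3 (2.28%). Blocked by replicate number, limma (4.46%) and edgeR (4.39%) called CD24 and EPCAM. Whether equal numbers mark paired libraries was not settled. The median log2 difference of the 9 members, CD24low minus CD24high, was -0.05, against -0.01 over all genes tested.

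CD24 transcripts were lower in the fraction sorted for little CD24 protein. CD24 (ENSG00000272398.5, at the hg38 position given with its sequence) had 4043, 2325 and 5687 normalized counts in CD24high replicates 1, 2 and 3. In CD24low replicates 1, 2 and 3 it had 588, 329 and 1370. The groups did not overlap, but the highest CD24low library, replicate 3, came nearer to CD24high replicate 2 than to CD24low replicate 2. The fold range inside a fraction was 2.45 in CD24high and 4.17 in CD24low. The means were 4018 ± 1681 and 762 ± 542 (SD, n = 3 each), a log2 difference of -2.55 (SE 0.46, 95% interval -3.59 to -1.51), or a 5.86-fold lower level. Limma's adjusted p was 0.084 and DESeq2's 0.027. Without CD24low replicate 3 the difference was -3.10 with a limma adjusted p of 0.0064. Limma's adjusted p was 0.13 to 0.28 with any other single library left out, and without CD24low replicate 2 the difference was -2.07. Among the low-rRNA libraries it was -1.16, and among the high-rRNA libraries -3.69. In sorted bulk samples, fewer cells with CD24 RNA and less CD24 RNA per cell cannot be told apart.

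CD24P4 tracked CD24 in every library. It had 68.9, 54.3 and 130 normalized counts in CD24high replicates 1 to 3 and 10.6, 8.60 and 31.3 in CD24low replicates 1 to 3. These values stood in the same order as those of CD24, library by library. As a share of the CD24 count they were 1.70%, 2.34% and 2.29% in CD24high and 1.80%, 2.62% and 2.29% in CD24low libraries. The share thus stayed within a narrow band while CD24 itself ranged 17.3-fold. The log2 difference of CD24P4 was -2.38 (SE 0.48, limma adjusted p 0.10, DESeq2 adjusted p 0.00073). Limma's adjusted p was 0.012 without CD24low replicate 3, and 0.16 to 0.30 with any other single library left out. How the counter treated reads that match several places is not stated, so these reads cannot be assigned to either gene.

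**Figure D2:**
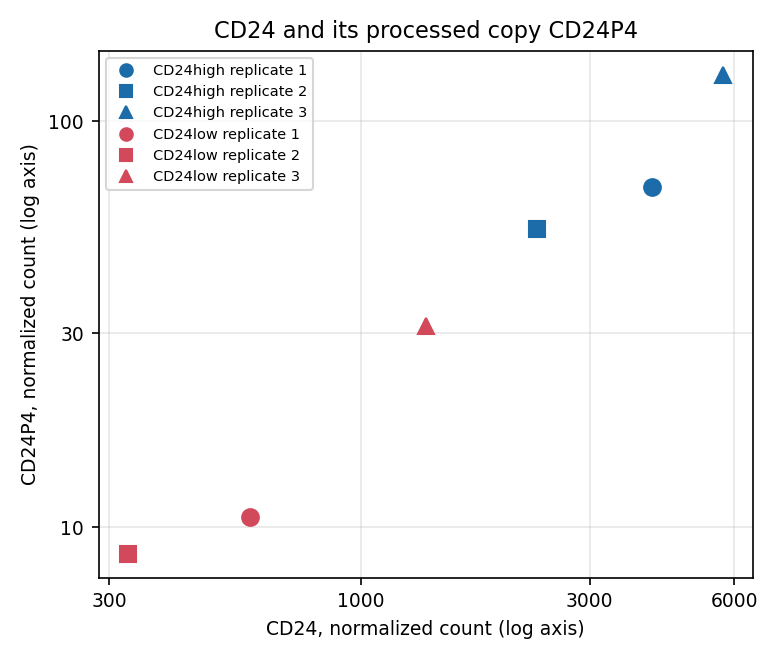
CD24P4 against CD24 in normalized counts (both axes log), 1 point per library. The points lie along a line from CD24low replicate 2 (329 and 8.60) to CD24high replicate 3 (5687 and 130).

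CD44 transcripts overlapped between the fractions, although the sort used CD44 protein as well. CD44 (ENSG00000026508.18, chromosome 11, 35138870 to 35232402, plus strand) had 8553, 7878 and 8993 normalized counts in the CD24high libraries and 8294, 7479 and 6866 in the CD24low libraries. The groups overlapped, and 2 of the CD24low libraries lay below all CD24high ones. The difference was -0.17 (SE 0.12, limma adjusted p 0.56). Its 95% interval, -0.43 to 0.09, spans a CD24low level of 0.742 to 1.07 times that of CD24high. Of the 9 tested members CD44 varied least, with a coefficient of variation of 9.59% over the 6 libraries, against 88.0% for CD24. The ratio of CD44 to CD24 within a library was 2.12, 3.39 and 1.58 in CD24high and 14.1, 22.8 and 5.01 in CD24low replicates 1 to 3. Both proteins were used for the sort, so this ratio describes the label and was not tested. Gene counts do not separate the splice forms of CD44.

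Of the genes that make, cut or sense the CD44 ligand hyaluronan, HAS2 and HAS3 had the smallest p. HAS2, a hyaluronan synthase, had 20.7, 21.7 and 16.1 normalized counts in CD24high and 45.8, 125 and 52.9 in CD24low libraries. Every CD24low library was higher, by 1.75 on the log2 scale (SE 0.37, limma adjusted p 0.12, DESeq2 adjusted p 0.0036). HAS3, a second synthase, went the other way without separation, with 80.5, 91.9 and 100.8 against 83.7, 47.8 and 35.3 (-0.79, SE 0.30, limma adjusted p 0.30).

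EPCAM was the other member whose groups did not overlap. EPCAM (ENSG00000119888.10, chromosome 2, 47345158 to 47387601, plus strand) had 4081, 3525 and 3796 normalized counts in the CD24high libraries and 2446, 1638 and 3473 in the CD24low libraries. CD24low replicate 3 lay just under the lowest CD24high library, and CD24low replicates 1 and 2 well below. The CD24high libraries spanned 1.16-fold and the CD24low libraries 2.12-fold. The log2 difference was -0.66 (SE 0.23, 95% interval -1.16 to -0.15, limma adjusted p 0.26, DESeq2 adjusted p 0.12). Without CD24low replicate 3 it was -0.92 with a limma adjusted p of 0.031, and without CD24low replicate 2 it was -0.38 (adjusted p 0.55). The difference was -0.13 among the low-rRNA and -0.92 among the high-rRNA libraries. Among the CD24low libraries EPCAM had the same order as CD24, highest in replicate 3 and lowest in replicate 2. The summed epithelial markers given above were also lower in every CD24low library. Singly, 4 of the 7 were lower without overlap, as were 9.32% of all genes, while KRT8, KRT14 and KRT18 overlapped. The part of these markers in this result was not tested.

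CLDN7, a claudin that binds EPCAM, had 1485, 2048 and 2572 normalized counts in CD24high and 838, 857 and 2363 in CD24low libraries. Here CD24low replicate 3 lay inside the CD24high range, and the difference of -0.73 (SE 0.36, limma adjusted p 0.41) became -1.23 without it (limma adjusted p 0.021).

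Of the progenitor markers, PROM1 was all but undetected and PROCR overlapped between the fractions. PROM1 (ENSG00000007062.11, chromosome 4, 15963076 to 16084378, minus strand) had 1 read in CD24low replicate 2 and 0 in the other 5 libraries. A count of 0 allows 3 reads, or 2.49 to 4.38 normalized counts depending on the library, so a difference at that level was not detectable at this depth. PROM2, the related prominin of epithelial cells, was abundant: 3123, 3699.7 and 5313 normalized counts in CD24high and 2385, 2022 and 3013 in CD24low libraries. PROM2 was lower in every CD24low library (-0.69, SE 0.20, limma adjusted p 0.20, DESeq2 adjusted p 0.033). Its difference was -0.17 among the low-rRNA and -1.27 among the high-rRNA libraries, and -0.48 without CD24high replicate 3.

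PROCR (ENSG00000101000.5, chromosome 20, 35172073 to 35216240, plus strand) had 292, 328 and 207 normalized counts in CD24high and 289, 443 and 286 in CD24low libraries. CD24low replicate 2 stood highest, and the other CD24low libraries lay among the CD24high ones. The difference was 0.29 (SE 0.22, 95% interval -0.20 to 0.79, limma adjusted p 0.59). Among the low-rRNA libraries it was -0.11, among the high-rRNA libraries 0.78, and without CD24low replicate 2 it was 0.09. MMP24OS, annotated on the other strand across the PROCR locus, had 137 to 183 normalized counts in CD24high and 177 to 397 in CD24low libraries. The libraries were stranded, but the strand setting of the count is not given, so reads of PROCR and MMP24OS cannot be told apart with certainty.

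Of the genes that act with PROCR in the anticoagulant protein C pathway, PROS1 and F2R had the smallest p. PROS1, the cofactor protein S, had 17.4, 37.5 and 8.77 normalized counts in CD24high and 100.5, 259.8 and 52.9 in CD24low libraries (2.56, SE 0.60, limma adjusted p 0.14, DESeq2 adjusted p 0.057). F2R, the thrombin receptor PAR1 through which PROCR-bound protein C signals, had 115, 150.2 and 78.9 against 332, 936 and 227 (1.89, SE 0.45, limma adjusted p 0.15, DESeq2 adjusted p 0.052). Both were higher in every CD24low library and highest in replicate 2, and neither passed the test over all 6 libraries. Without CD24low replicate 3 limma called both (adjusted p 0.028 for PROS1 and 0.024 for F2R), as it did with no filter (0.043 and 0.035) and with the replicate block. With other single libraries left out limma's adjusted p reached 0.32 for PROS1 and 0.30 for F2R. The difference between their change and that of PROCR was not tested. Protein C itself (PROC) and thrombomodulin (THBD) had at most 6 reads in any library.

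The stromal markers NT5E, ENG and ALCAM varied between libraries of a fraction more than between fractions. NT5E (ENSG00000135318.11, chromosome 6, 85449584 to 85495791, plus strand), the ectoenzyme that makes adenosine from AMP, had 6009, 4685 and 2854 normalized counts in CD24high and 5080, 4491 and 3203 in CD24low libraries. In both fractions replicate 1 was highest and replicate 3 lowest. The difference was -0.05 (SE 0.26, 95% interval -0.62 to 0.53, limma adjusted p 0.96). Among the low-rRNA libraries it was -0.73, and among the high-rRNA libraries 0.74. ADORA1 and ADA, a receptor for adenosine and the deaminase that removes it, were higher in every CD24low library. ADORA1 had 15.8 to 30.7 normalized counts in CD24high and 34.4 to 57.3 in CD24low (0.99, SE 0.32, limma adjusted p 0.24). ADA had 137 to 151 and 187 to 434 (0.85, SE 0.28, limma adjusted p 0.24, DESeq2 adjusted p 0.049). The difference of ADA was 0.48 without CD24low replicate 2.

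ENG (ENSG00000106991.13, chromosome 9, 127815012 to 127854756, minus strand), a co-receptor for BMP and TGF-beta ligands, had 331, 426 and 652 normalized counts in CD24high and 664, 582 and 322 in CD24low libraries. The 3 highest libraries, CD24low replicates 1 and 2 and CD24high replicate 3, were the 3 with a high rRNA share. The difference was 0.15 (SE 0.30, 95% interval -0.52 to 0.81, limma adjusted p 0.87), with -0.22 among the low-rRNA and -0.07 among the high-rRNA libraries. TGFBR3 (betaglycan), a co-receptor of related structure, had 144, 122 and 123 normalized counts against 254, 374 and 149.9, with no overlap (0.91, SE 0.29, limma adjusted p 0.23, DESeq2 adjusted p 0.035). That difference was 0.59 without CD24low replicate 2, 1.25 without CD24low replicate 3 (limma adjusted p 0.022), and 0.18 among the low-rRNA libraries. TGFBR1, the signalling receptor, overlapped (-0.24, SE 0.21, limma adjusted p 0.65). AL162586.1, antisense to ENG, had 5.88 to 33.6 normalized counts.

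ALCAM (ENSG00000170017.12, chromosome 3, 105366909 to 105576900, plus strand), an immunoglobulin-family adhesion molecule, had 5829, 3844 and 3206 normalized counts in CD24high and 4879, 4072 and 4042 in CD24low libraries. All CD24low values lay inside the CD24high range. The difference was 0.05 (SE 0.20, 95% interval -0.39 to 0.50, limma adjusted p 0.93). L1CAM, a related adhesion molecule, had 193 to 488 normalized counts and a difference near 0 (-0.0022, SE 0.36, limma adjusted p 0.999).

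MME (ENSG00000196549.10, chromosome 3, 155024124 to 155183729, plus strand), a membrane metallopeptidase, had 131, 194 and 142 normalized counts in CD24high and 116, 275 and 221 in CD24low libraries. The CD24low libraries held both the lowest and the highest value. The difference was 0.32 (SE 0.30, 95% interval -0.34 to 0.99, limma adjusted p 0.67), and it ran from 0.07, when CD24low replicate 2 was left out, to 0.68, when CD24low replicate 1 was. ECE1, a metallopeptidase of the same family, was higher in every CD24low library, with 1229 to 1597 against 1662 to 2337 normalized counts (0.40, SE 0.15, limma adjusted p 0.30).

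CD55 (ENSG00000196352.15, chromosome 1, 207321376 to 207386804, plus strand) had 822, 1012 and 643 normalized counts in CD24high and 757, 765 and 746 in CD24low libraries. The CD24low libraries agreed within 1.03-fold and sat inside the 1.57-fold range of the CD24high libraries. The difference was -0.10 (SE 0.16, 95% interval -0.46 to 0.25, limma adjusted p 0.82). CD46, a membrane cofactor that also regulates complement, was slightly lower in every CD24low library, with 3077 to 3974 against 2837 to 2943 (-0.26, SE 0.12, limma adjusted p 0.37).

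**Figure D3:**
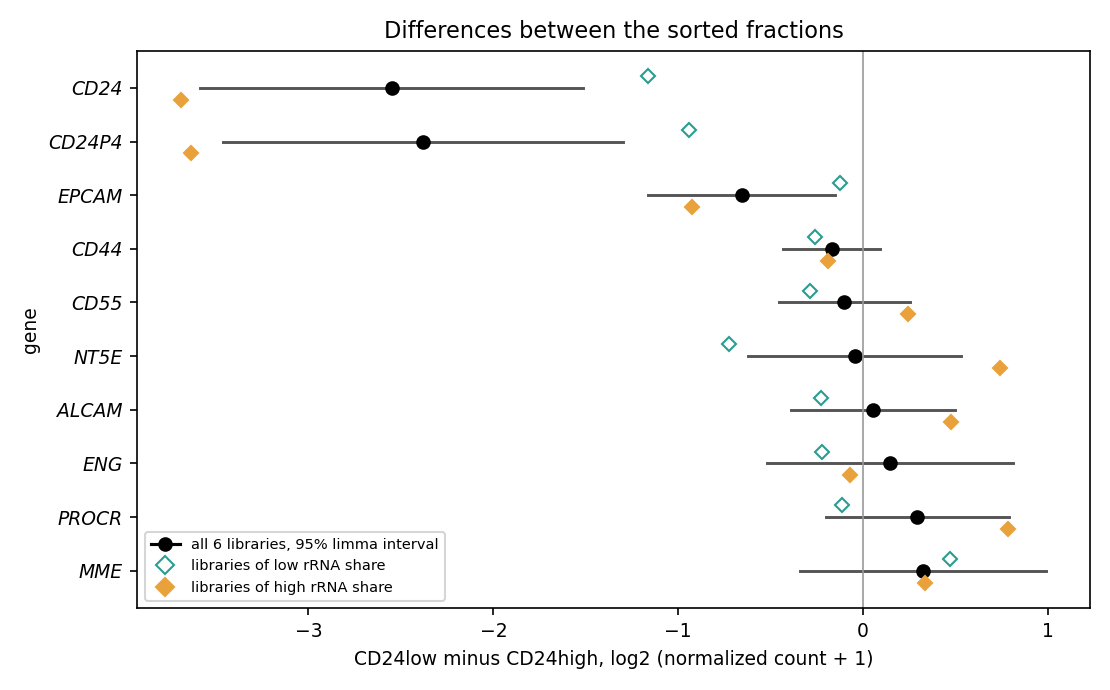
Log2 differences, CD24low minus CD24high, of the 9 tested members and CD24P4: black points and bars give limma's estimate and 95% interval over 6 libraries, diamonds the values within libraries of low or high rRNA share. CD24, CD24P4 and EPCAM have intervals below 0; NT5E, CD55, PROCR and ALCAM have diamonds on both sides of 0.

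Scaled by the length of annotated exons, the members formed tiers. In CD24high libraries EPCAM had 1509 ± 110 normalized counts per kb, CD24 1297 ± 543, NT5E 996 ± 349.5, CD44 847 ± 56.2 and ALCAM 598 ± 191 (SD, n = 3). Neighbours in this order overlapped between libraries. PROCR (163 ± 36.5), CD55 (139.7 ± 31.2) and ENG (119 ± 41.9 per kb) overlapped with each other and lay below all of them. MME came lower still, at 16.2 ± 3.48 per kb. In CD24low libraries EPCAM (1000.1 ± 365), NT5E (939 ± 212), CD44 (754 ± 71.6) and ALCAM (603 ± 66.1 per kb) were the upper tier; of these neighbours only CD44 and ALCAM did not overlap. CD24 stood at place 2 in CD24high and at place 5 in CD24low libraries, where it had 246 ± 175 per kb and overlapped with PROCR (200.1 ± 53.0). With the longest annotated coding transcript as the length, a choice made after seeing the data, 4 members changed places in the CD24high order, while CD24 again took places 2 and 5.

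**Figure D4:**
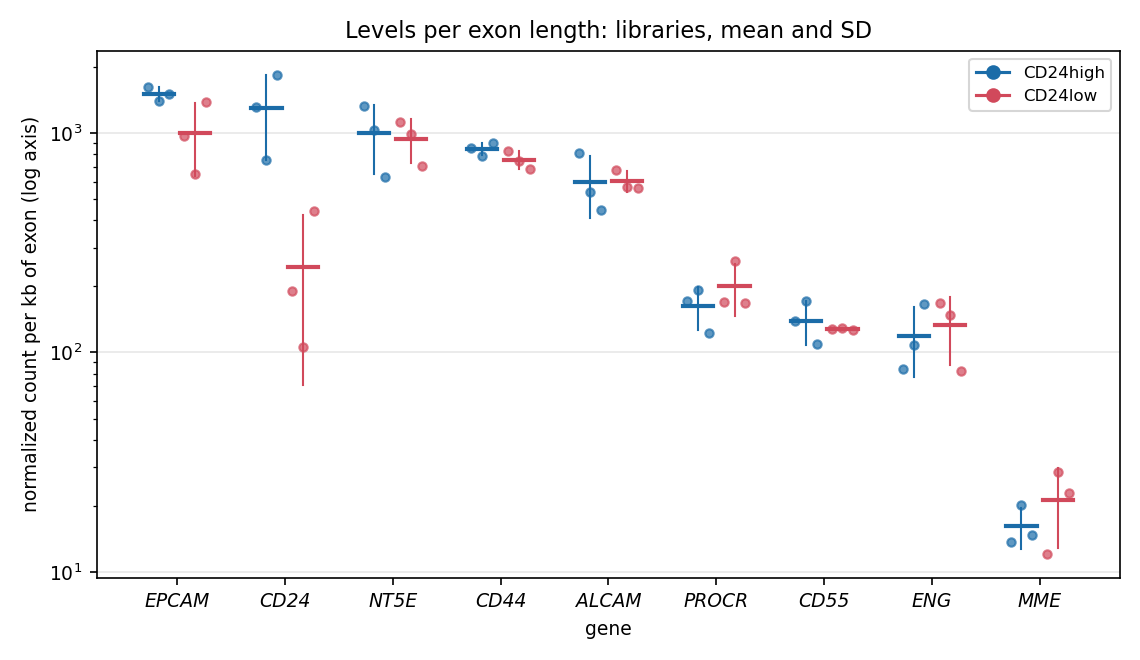
Normalized counts per kb of exon (log axis) of the 9 detected members; points are libraries, thick bars means and thin bars SD. CD24 is in the upper tier in CD24high (1297) and near PROCR in CD24low (246 and 200.1); the other genes are in the same tier in both.

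The genes whose profiles over the 6 libraries were nearest to CD24, by root mean square distance of centred log2 values among 10478 protein-coding genes, were A2ML1, GJA5 and KLK7. Their distances were 0.30, 0.52 and 0.52, where CD24 itself varied by 1.46 about its own mean. A2ML1, a protease inhibitor of epidermis, had 1320, 819.96 and 1771 normalized counts in CD24high and 326, 144 and 635 in CD24low libraries, the same order of libraries as CD24. GJA5 encodes a connexin and KLK7 a kallikrein protease of the skin barrier. Nearest to EPCAM were LAD1, a protein of the basement membrane zone (distance 0.06), CDS1, an enzyme of phospholipid synthesis (0.07), and HOOK1, a microtubule linker (0.08). LAD1 had 2635, 2454 and 2547 normalized counts in CD24high and 1669, 1072 and 2126 in CD24low libraries. Nearest to MME were PGPEP1, DNAH11 and NIPSNAP1, with distances of 0.16 to 0.17. EPCAM itself varied by 0.46 and MME by 0.44 about their own means, less than CD24, so distances are to be read against these values. These distances describe 6 libraries and were not tested.

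Of 30 other surface markers used on mammary or breast tumour cells, 20 passed the filter, and limma called 0 of them, with 6 lower and 0 higher at an unadjusted p below 0.05 (7.15% and 6.34% of all genes). Their median difference was -0.17, against -0.01 over all genes. Of the 20, 5 were lower in every CD24low library and 0 higher, against 9.32% and 10.2% of all genes. DESeq2 called 2 as lower and 0 as higher, against 1.15% and 1.36%. The smallest p-values among the lower ones belonged to ITGA2, CDH3 and CD9. ITGA2, the alpha-2 integrin, had 2411, 2339 and 1885 normalized counts in CD24high and 1358, 1181 and 1527 in CD24low libraries (-0.71, SE 0.14, limma adjusted p 0.094, DESeq2 adjusted p 0.00057). CDH3, P-cadherin of basal epithelium, had 3528, 3294 and 3760 against 2256, 1615 and 2651 (-0.73, SE 0.17, limma adjusted p 0.14, DESeq2 adjusted p 0.0065). CD9, a tetraspanin, had 2167 to 2292 against 1489 to 2032 (-0.42, SE 0.13, limma adjusted p 0.23). Without CD24low replicate 3, where limma called 2.28% of all genes, it called ITGA2 (adjusted p 0.030), CDH3 (0.026) and CD9 (0.045). With any other single library left out limma did not call them, with adjusted p of up to 0.27, 0.30 and 0.52 in that order. ITGA2 was -0.64 among the low-rRNA and -0.57 among the high-rRNA libraries. In the same order CDH3 was -0.36 and -0.98, and CD9 -0.16 and -0.52. Among those with a positive difference, ANPEP (0.31), MCAM (0.33) and CD59 (0.18) had the smallest p, and their groups overlapped. Without CD24low replicate 2 ANPEP was 0.20 and MCAM 0.0073, and without CD24high replicate 3 CD59 was 0.077. KIT, LGR5, LGR6 and PDPN had 0 reads, and 6 others, THY1 and CXCR4 among them, had reads below the filter.

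Of 49 partners and paralogs of the members, 33 passed the filter, with a median difference of -0.0022. Limma called 0, with 8 higher and 3 lower at an unadjusted p below 0.05 (6.34% and 7.15% of all genes). DESeq2 called 4 as higher and 2 as lower, against 1.36% and 1.15%. Groups did not overlap for 8 that were higher and 3 that were lower in CD24low cells, against 10.2% and 9.32%. The lists of other markers and of partners share 5 symbols. All 27 genes that build or attach the GPI anchor, which CD24, NT5E and CD55 need to reach the surface, passed the filter. Limma and DESeq2 called 0 of the 27, 3 had an unadjusted limma p below 0.05, where 13.5% of all genes did, and the median was 0.06. The smallest p-values belonged to GPAA1 (793, 860.5 and 1013 against 1132, 1170.1 and 1247 normalized counts) and PIGT (659.7, 809 and 846 against 1059, 1332 and 953), subunits of the enzyme that attaches the anchor. Both were higher in every CD24low library, GPAA1 by 0.42 and PIGT by 0.52 (limma adjusted p 0.20 each).

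**Figure D5:**
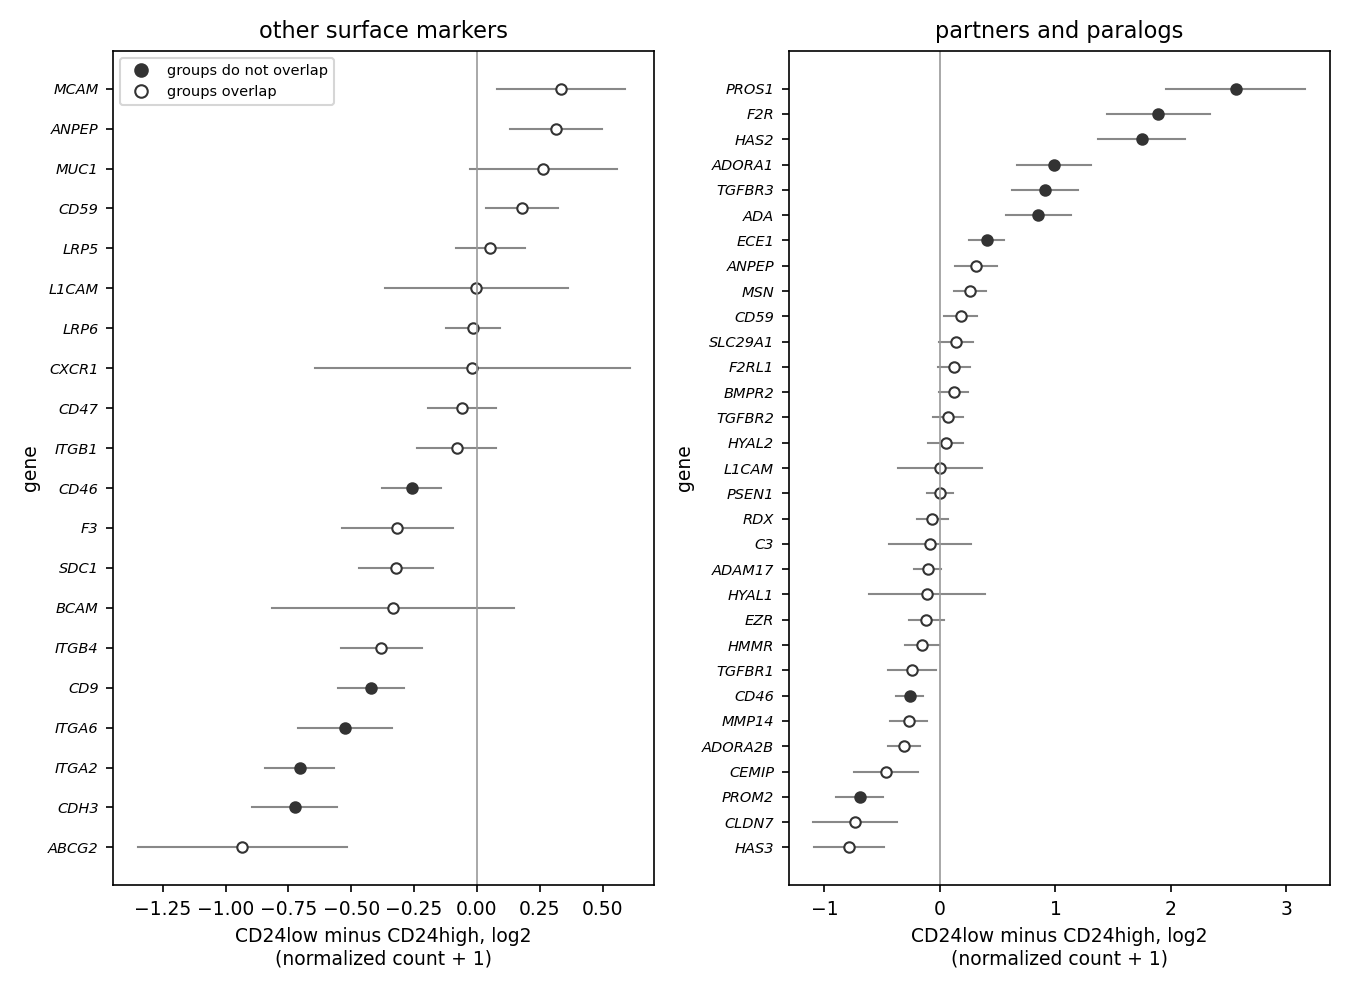
Log2 differences with standard errors of 20 tested other surface markers (left) and 31 of the 33 tested partners and paralogs (right); filled points mark groups that do not overlap. The filled points are all below 0 on the left (5 genes), and on the right 7 lie above 0, PROS1 farthest at 2.56, and 2 below.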

How the data were processed

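RNA-seq of 6 libraries (total RNA, rRNA-depleted, stranded, random hexamers, per the labels' protocols) was analysed. The deposited values are a signal: whole reads per gene over a DESeq2 size factor, 1 column for each library, per the file headers and the submitters' processing notes, which also name STAR 2.5.2, R 3.5.0 and hg38. Not given in the sources used here are the read counter, its strand setting and the release of the annotation. Values were whole multiples of the worth of 1 read (0.830 to 1.46 normalized counts), and 100% came out whole within 0.1 reads. Of 58381 identifiers, 58261 matched GENCODE 29 without their version.

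The main test was limma 3.58.1 (R 4.3.3) on log2 (normalized count + 1) with the trend option and group as the only term, two-sided, with Benjamini-Hochberg adjustment over 16047 genes with a mean of at least 10. DESeq2 1.42.0 and edgeR 4.0.16 (quasi-likelihood) were run on recovered reads. The test was tried on simulated data. The limit for a count of 0 is 3 reads in a library; without molecular identifiers it covers counting error only. Replicates of a group differed by more than sampling noise (chi-square per degree of freedom of at least 24.1), so each library counts once. The alternatives were pseudocounts, filters, total scaling, no trend, the rRNA share as covariate, a replicate block, and leaving out libraries.

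The members and gene lists were chosen with earlier results of these data known. Named genes are the members, CD24 copies, the 3 other surface markers per direction, up to 2 partners per member and the 2 anchor genes with the smallest limma p, and the 3 nearest profiles of CD24, EPCAM and MME. Genes overlapping a member, PROC, THBD, and genes at 0 or below the filter were named after their values were seen. Some genes of these lists are counted in the totals but not reported here.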

Additional observations from a re-analysis of the deposited data

How the results depend on the processing

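Limma called 0 genes in most settings, but the count was 164 with no filter, 103 without both libraries numbered 3, 716 in limma and 705 in edgeR with the replicate block, and 402 with DESeq2; leaving out 1 library gave 0 to 366, the highest without CD24low replicate 3. Members called were 1 (CD24) with no filter, with DESeq2 and without both libraries numbered 3, and 2 (CD24 and EPCAM) with the replicate block by either tool; leaving out 1 library gave 0 to 2. Same-numbered libraries deviated together with correlations of 0.27, 0.30 and 0.05 over genes. CD24low replicate 3 correlated best with CD24high replicate 1 (0.08). Whether the numbers pair the libraries was therefore left unsettled, and the block was used only as an alternative. The log2 ratio of CD44 to CD24, which differed by 2.38 between fractions, differed by 0.90 among the low-rRNA and 3.499 among the high-rRNA libraries, and by 1.90 to 2.99 with 1 library left out. The cause of these shifts was not tested.

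Uncalled differences changed sign as follows. With the rRNA share as covariate NT5E was 0.034 and ENG -0.075. Among the low-rRNA libraries PROCR was -0.11, ENG -0.22, ALCAM -0.23, MCAM -0.061, CD59 -0.15, CLDN7 0.44 and ABCG2 0.065. Among the high-rRNA libraries NT5E was 0.74, ENG -0.069, CD55 0.24, TGFBR1 0.19 and PGPEP1 -0.010. Without both libraries numbered 3 ALCAM was -0.087 and L1CAM 0.51, and L1CAM was 0.092 with edgeR, 0.015 with the replicate block in edgeR and 0.083 with DESeq2. With 1 library left out, NT5E ran from -0.34 to 0.19, ENG from -0.077 to 0.46, ALCAM from -0.13 to 0.30, CD55 from -0.27 to 0.056, L1CAM from -0.44 to 0.29, TGFBR1 from -0.43 to 0.023, PGPEP1 from -0.10 to 0.39 and DNAH11 from -0.042 to 0.36. CD24 ran from -3.10 to -2.07 and EPCAM from -0.92 to -0.38. Of the uncalled partners, ECE1 was 0.26 without CD24low replicate 2, CD46 -0.16 without CD24high replicate 1 and HAS3 -0.51 without CD24low replicate 3. Differences below the width of the intervals given cannot be resolved with 3 libraries a group, and PROM1 is limited by depth.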

Other observations

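PECAM1, an adhesion molecule of endothelium and blood cells, had 85.5, 393 and 142 normalized counts in replicates 1, 2 and 3 of CD24high, and 105, 340.0 and 254 in those of CD24low. The groups overlapped, and in both fractions replicate 2 was highest and replicate 1 lowest. The other endothelial markers were near 0: VWF had 1 read in all, and CDH5, KDR and TEK stayed below the filter. CXCR4, a chemokine receptor used to mark migrating tumour cells, had 0 reads in each CD24high library and 3, 4 and 2 reads in CD24low replicates 1, 2 and 3, at the limit that a count of 0 allows. CFB, complement factor B, had 1, 3 and 0 reads in CD24high and 5, 42 and 9 reads in CD24low libraries, which was below the filter and not tested. ABCG2, the efflux pump behind side-population sorting, had 142, 83.0 and 127 normalized counts in CD24high and 59.9, 30.6 and 114 in CD24low libraries, with overlapping groups (-0.93, SE 0.42, limma adjusted p 0.37). ABCG2 differed by 0.065 among the low-rRNA and by -1.55 among the high-rRNA libraries. These genes were picked after their values were seen.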
